A study of Mus musculus with 37 samples.

Results

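The genes described here are 9 that encode enzymes and transporters of extracellular nucleotides and pyrophosphate, namely Enpp1, Enpp2, Enpp3, Enpp4 and Enpp5 of the ecto-nucleotide pyrophosphatase/phosphodiesterase family, Nt5e, Entpd1, Alpl and Ank. They were chosen by name and were read in every library that holds them. All 9 were among the 30892 genes of the cardiac fibroblast table, the 20158 genes of the rat myocyte table (where Ank has its rat symbol Ankh) and the 31053 genes of the single-cell tables.

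The study covers 37 libraries. Immortalized cardiac fibroblasts (CFs) of C57BL/6 mice, labelled wild type, gave 20 libraries, 2 for each of 5 media at 24 h and at 48 h. The media (MCndM) were conditioned by neonatal rat ventricular myocytes (NRVMs) that had received vehicle, ENPP1, ATP, ENPP1 together with ATP, or AMP, and CFs were without serum before and during the exposure. NRVMs of Sprague-Dawley rats, labelled wild type, gave 15 libraries, 3 for each of the same 5 treatments at 24 h. The labels name those treatments as conditioned media too. Nonmyocytes of the injured heart of C57BL/6 mice at 7 days after myocardial infarction gave the other 2 libraries, 1 from ENPP1CKO animals, in which both Enpp1 alleles are floxed for deletion by tamoxifen-induced Cre under the Col1a2 promoter, and 1 from a control labelled wild type. The CFs were immortalized with a viral antigen and are not primary cells, the Cre acts in Col1a2-expressing cells and not in all Enpp1-expressing cells, and the number of hearts in each single-cell library is not given in the labels.

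Extracellular ATP is taken apart at the cell surface in steps. ENPP1 and ENPP3 hydrolyse ATP to AMP and pyrophosphate, ENTPD1 (CD39) removes phosphates from ATP and ADP to give AMP, and NT5E (CD73) turns AMP into adenosine. ANK exports pyrophosphate or its precursor ATP, and ALPL, tissue-nonspecific alkaline phosphatase, hydrolyses pyrophosphate to phosphate, so that together with ENPP1 these proteins set how readily tissue mineralizes. ENPP2 (autotaxin) is a secreted lysophospholipase D that makes lysophosphatidic acid, ENPP4 cleaves diadenosine polyphosphates, and the substrates of ENPP5 are less well known. In the injured heart ENPP1 is known mainly from fibroblasts, and CD39 and CD73 from endothelial and immune cells.

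The genes fall into a few neighbourhoods of the mouse genome (GENCODE vM21, GRCm38). Enpp1 (ENSMUSG00000037370, chr10:24637914-24712159, minus strand) and Enpp3 (ENSMUSG00000019989, chr10:24772406-24842823, minus strand) lie 60246 bases apart. Enpp4 (ENSMUSG00000023961, chr17:44096308-44105809, minus strand) and Enpp5 (ENSMUSG00000023960, chr17:44078813-44086567, plus strand) lie 9740 bases apart on opposite strands. Nt5e (ENSMUSG00000032420) is at chr9:88327197-88372092 on the plus strand, Entpd1 (ENSMUSG00000048120) at chr19:40612366-40741602 on the plus strand, Alpl (ENSMUSG00000028766) at chr4:137741733-137796384 on the minus strand, Enpp2 (ENSMUSG00000022425) at chr15:54838901-54952892 on the minus strand and Ank (ENSMUSG00000022265) at chr15:27466677-27594909 on the plus strand. Whether counting used strand is not given in the sources used here, so that reads of exons shared by Enpp2 and Gm26684 on the other strand cannot be told apart, and an exon of Ank also holds Mir7117.

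Promoters are shown for Enpp1, Enpp3 and Nt5e, the called members with the largest changes in CFs, which moved in different directions. Each sequence is the 250 bases before the gene's start in RefSeq (GRCm38.p6), 5′ to 3′ on the strand of the gene. The Enpp1 window is chr10:24712160-24712409 (minus), the Enpp3 window chr10:24836196-24836445 (minus) and the Nt5e window chr9:88327359-88327608 (plus). The windows of Enpp3 and Nt5e lie inside the spans that GENCODE gives those genes, since the start in RefSeq is downstream of the outermost GENCODE start. Capitals mark matches, on either strand, to the GC box (GGGCGG), the CCAAT box (CCAAT), the CRE half-site (TGACG), the AP-1 core (TGANTCA) or the TATA box (TATAA), and matches to 1 motif can overlap each other.
Enpp1: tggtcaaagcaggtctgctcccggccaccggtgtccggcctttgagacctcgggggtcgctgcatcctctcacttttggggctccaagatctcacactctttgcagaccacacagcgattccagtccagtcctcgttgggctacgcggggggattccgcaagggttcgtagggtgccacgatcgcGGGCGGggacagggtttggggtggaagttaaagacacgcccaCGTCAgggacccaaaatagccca
Enpp3: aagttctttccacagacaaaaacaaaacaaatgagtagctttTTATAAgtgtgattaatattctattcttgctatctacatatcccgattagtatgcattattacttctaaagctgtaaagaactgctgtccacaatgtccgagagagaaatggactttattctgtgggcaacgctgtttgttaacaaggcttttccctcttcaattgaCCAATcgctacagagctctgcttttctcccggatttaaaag
Nt5e: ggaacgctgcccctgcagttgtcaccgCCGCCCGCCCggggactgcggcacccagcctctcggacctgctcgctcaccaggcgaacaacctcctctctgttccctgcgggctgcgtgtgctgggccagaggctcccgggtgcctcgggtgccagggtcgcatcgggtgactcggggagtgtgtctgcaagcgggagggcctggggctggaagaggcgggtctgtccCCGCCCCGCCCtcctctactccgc
The Enpp1 window held 61.2% G and C, with 1 GC box and 1 CRE half-site. The Enpp3 window was low in G and C at 36.8% and held 1 CCAAT box and 2 TATA box matches, which are the 2 strands of 1 overlapping site. In the Nt5e window, 72.0% was G or C and there were 4 GC boxes. Over 32851 mouse promoters of the same length the median G and C content was 52.4%, and 32.7% held a GC box, 33.8% a CCAAT box, 17.8% a CRE half-site, 6.75% an AP-1 core and 22.8% a TATA box. The matches describe letters only.

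Library totals ran from 32184799 to 115824659 counts in CFs, the highest in replicate 1 of 24 h vehicle medium, and from 13481389 to 16977980 in NRVMs. Labels do not say that replicates came from separate cultures, so that p-values measure the spread between these libraries, which may be technical. CFs carried their labelled identity in part. Fibroblast markers summed to 7323 to 7652 scaled counts (CPM, counts per 1e6 counts of the library after TMM scaling) in 24 h vehicle libraries, although the fibroblast genes Lum (0.0481 to 0.336 CPM over all CF libraries) and Mfap5 (0.0392 to 0.186) were near 0. That sum was 3629 to 3735 CPM with ENPP1+ATP and 2884 to 3118 with AMP at 24 h. In the same libraries 2 marker lists of other cells were higher at both times. Macrophage markers summed to 15.9 to 18.3 CPM with vehicle and 34.5 to 61.8 with ENPP1+ATP or AMP at 24 h and to 16.8 to 18.1 against 73.1 to 88.5 at 48 h. Smooth muscle or pericyte markers summed to 154 to 158 CPM with vehicle and 210 to 228 with these media at 24 h, and to 163 to 170 against 400 to 468 at 48 h. Cardiomyocyte markers summed to 24.9 to 26.4 CPM with vehicle and 17.8 to 18.1 with ENPP1+ATP at 24 h, and endothelial markers to 658 to 679 and 647 to 661 at 24 h but to 540 to 553 and 848 to 863 at 48 h. With vehicle, ENPP1+ATP or AMP only 3 to 4 of 11 macrophage markers reached 1 CPM in a CF library. So did 2 to 3 of 9 smooth muscle or pericyte markers and 2 to 3 of 10 endothelial markers. The sums thus rest on few genes of each list and do not show that such cells were present. The part of these marker shifts in the CF results was not tested. In NRVMs, cardiomyocyte markers summed to 28677 to 29577 CPM in vehicle libraries, with 9 of 9 at or above 1 CPM, to 16217 to 17379 with ATP, 24879 to 25979 with ENPP1+ATP and 28482 to 30195 with AMP. Fibroblast markers summed there to 24910 to 26313 CPM in vehicle libraries, 25064 to 25449 with ENPP1, 10429 to 11772 with ATP, 8337 to 8802 with ENPP1+ATP and 11581 to 12363 with AMP. The NRVM cultures thus held cardiomyocyte and fibroblast transcripts whose levels moved with treatment, and the part of these shifts in the results below was not tested. In such bulk libraries fewer cells of a type and less RNA per cell cannot be told apart.

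In CFs under 24 h vehicle medium the members spanned a wide range per transcript length. Levels in reads per kilobase scaled to library size (RPKM) were 18.3 and 10.9 for Ank, 13.0 and 14.6 for Enpp4, 5.65 and 5.25 for Enpp5, and 4.19 and 3.53 for Enpp3. Lower levels were found for Enpp2 (0.759 and 0.632 RPKM), Enpp1 (0.607 and 0.567), Nt5e (0.182 and 0.148), Alpl (0.0977 and 0.0536) and Entpd1 (0.0235 and 0.0387). Ank and Enpp4 overlapped, and the 2 libraries of each other neighbour in this order did not overlap, although Enpp2 and Enpp1 lay close together. The catalytic genes for ATP, Enpp1 and Enpp3, were therefore both present, with Enpp3 the higher of the pair, while Entpd1 and Alpl were near the limit of detection, at 1 to 16 and 8 to 45 reads per library over the 20 libraries.

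The first question was whether medium of myocytes that had received ENPP1 with ATP, or the product AMP, changed these genes in CFs. At 24 h, ENPP1+ATP medium raised Enpp1 and Enpp5 and lowered Enpp3 and Nt5e, and AMP medium did the same and also lowered Enpp4 slightly. With ENPP1+ATP, 4 of 9 members passed the test (2 higher, 2 lower), where 49.1% of all genes tested were called. AMP medium changed 5 of 9 (2 higher, 3 lower), beside 52.8% of all genes. The members' counts are thus near the background share, and the results are those of the single genes. Both media were set against the same vehicle libraries, so their values stand side by side and are not independent.

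**Figure D1:**
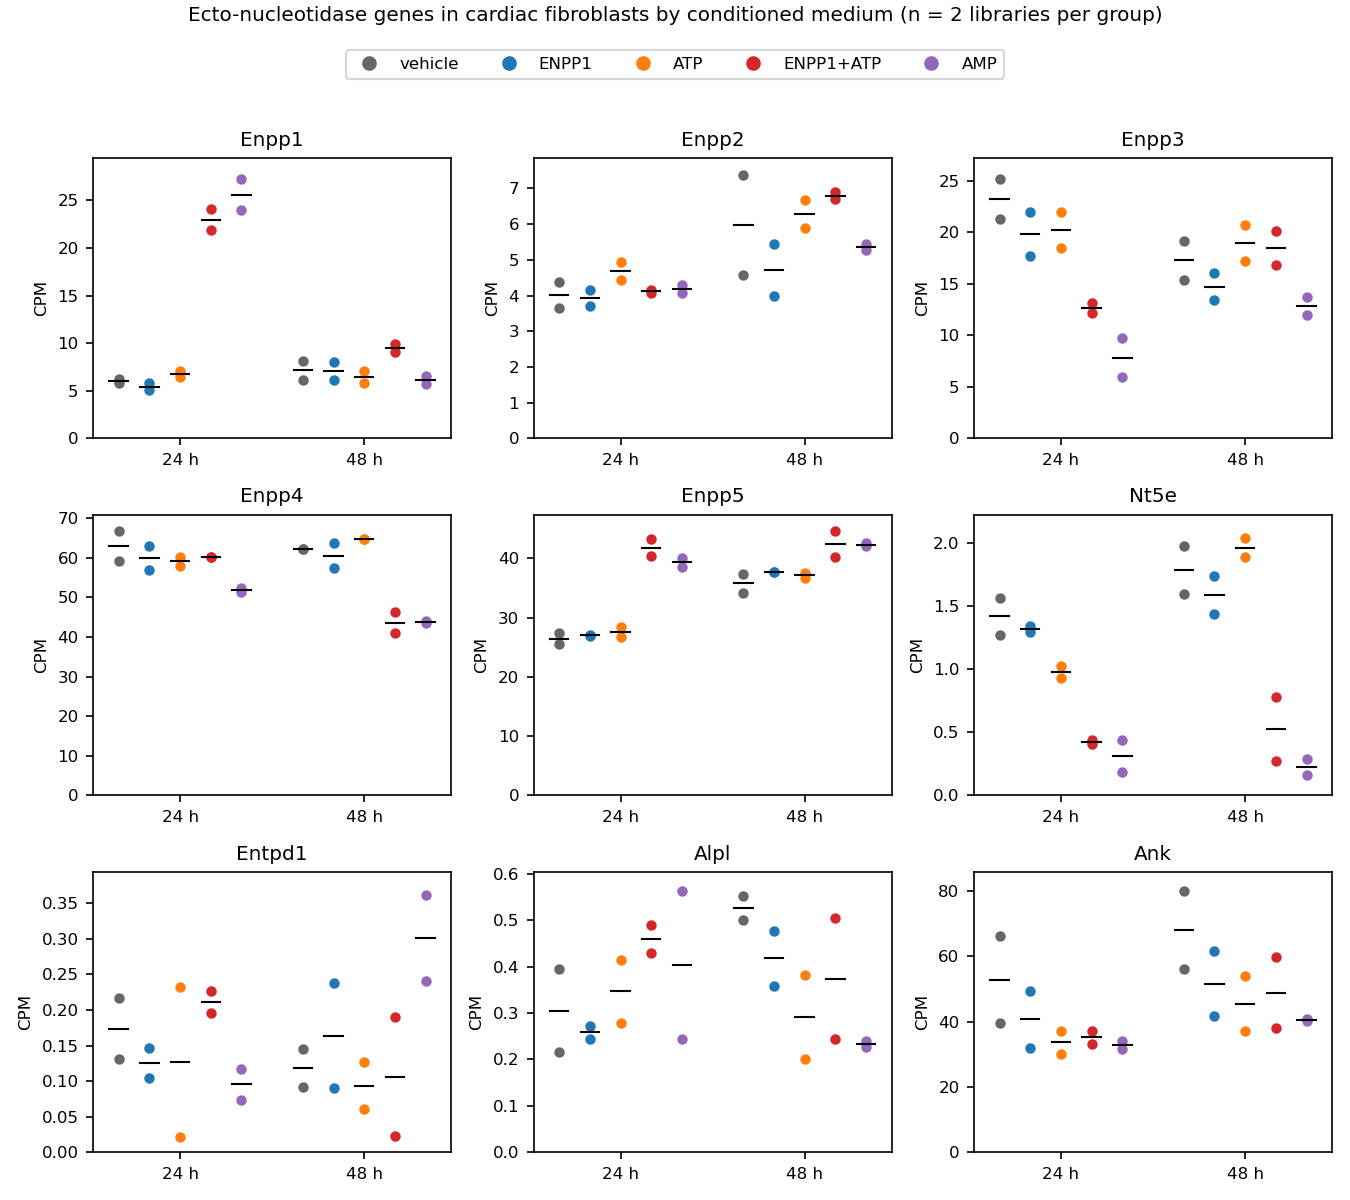
Level of each gene in CFs, in CPM scaled by TMM factors, at 24 h and 48 h by medium, with a point for each of the 2 libraries of a group and a line at their mean. Enpp1 stands at 21.8 to 27.2 CPM with ENPP1+ATP or AMP medium at 24 h and at 5.09 to 9.89 CPM in every other library, while Nt5e is at 0.158 to 0.785 CPM with these media at both times.

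Enpp1, which cleaves ATP to AMP and pyrophosphate, measured 6.23 and 5.81 CPM in 24 h vehicle libraries, 24.1 and 21.8 CPM with ENPP1+ATP and 27.2 and 24.0 CPM with AMP. The libraries of the last 2 media lay far above vehicle, with no overlap. The rise was 3.79-fold with ENPP1+ATP (log2 fold change 1.92 ± 0.14 SE, adjusted p = 2.86e-11) and 4.22-fold with AMP (2.08 ± 0.14, adjusted p = 4.61e-12). Medium of myocytes given ENPP1 alone (5.81 and 5.09 CPM) or ATP alone (7.07 and 6.45 CPM) gave log2 differences from vehicle of -0.15 (adjusted p = 1) and 0.16 (adjusted p = 0.64). Against ATP alone, ENPP1+ATP was higher by 1.76 on the log2 scale (adjusted p = 3.6e-10, where 43.9% of all genes were called). Per length, Enpp1 rose from 0.607 and 0.567 RPKM to 2.35 and 2.13 with ENPP1+ATP and to 2.65 and 2.34 with AMP, still below the 24 h vehicle level of Enpp3.

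By 48 h the Enpp1 increase was much smaller. Levels were 8.17 and 6.10 CPM with vehicle, 9.89 and 9.04 with ENPP1+ATP and 6.56 and 5.69 with AMP. ENPP1+ATP libraries were still above both vehicle libraries, and AMP libraries overlapped vehicle. The log2 fold change was 0.41 ± 0.15 with ENPP1+ATP (adjusted p = 0.0253) and -0.22 with AMP (adjusted p = 0.243). The ENPP1+ATP value was 0.34 without ENPP1+ATP replicate 1 and 0.20 without vehicle replicate 2. Its call was lost without either 1 of these libraries. It was also lost in the fits of the compared groups alone (adjusted p = 0.0645) or of that time alone (0.0625). The change in the effect from 24 h to 48 h was itself tested and was -1.52 ± 0.20 for ENPP1+ATP (adjusted p = 2.24e-06) and -2.30 ± 0.20 for AMP (adjusted p = 4.36e-09), where 30.0% and 31.7% of all genes were called. Against ATP alone at 48 h, ENPP1+ATP was higher by 0.56 (adjusted p = 0.00349, where 39.5% of all genes were called), a call lost without ATP replicate 1 (0.0892). Within a medium, Enpp1 fell by 1.28 on the log2 scale between 24 h and 48 h with ENPP1+ATP (adjusted p = 6.13e-08) and by 2.06 with AMP (2.44e-11). Over the 10 CF groups, genes with the pattern most like Enpp1 were Dcp1a, Stxbp4 and Dsn1, each at a Pearson r of 0.99 over group means, which describes 10 points that share libraries and sets no common control.

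Enpp3, another ATP pyrophosphatase of the family and the chromosomal neighbour of Enpp1, moved the opposite way. It measured 25.2 and 21.3 CPM with 24 h vehicle medium, 13.1 and 12.2 with ENPP1+ATP and 5.93 and 9.69 with AMP. Both treated groups were below vehicle without overlap, and AMP was below ENPP1+ATP. Enpp3 fell by 0.88 on the log2 scale with ENPP1+ATP (SE 0.19, adjusted p = 0.00122) and by 1.54 with AMP (SE 0.20, adjusted p = 6.74e-06). The AMP libraries differed from ENPP1+ATP by -0.66, which missed the threshold (adjusted p = 0.0731) and passed without AMP replicate 2 (-1.10, adjusted p = 0.00677) or under DESeq2 (-0.68, 0.0035). With ENPP1 alone (22.0 and 17.7 CPM) and ATP alone (21.9 and 18.5 CPM) the gene overlapped vehicle.

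At 48 h Enpp3 overlapped vehicle with ENPP1+ATP and was still below it with AMP. The libraries held 19.2 and 15.4 CPM with vehicle, 20.1 and 16.8 with ENPP1+ATP and 13.7 and 11.9 with AMP. The log2 differences were 0.10 with ENPP1+ATP and -0.43 with AMP (adjusted p = 0.09). The AMP difference passed under DESeq2 (0.0486), in the fits of the compared groups alone (0.0102) and of that time alone (0.0213), and with no filter on low counts (0.000105). The effect at 48 h less that at 24 h was 0.98 ± 0.27 for ENPP1+ATP (adjusted p = 0.0124, and 0.0542 to 0.0719 without 24 h ENPP1+ATP replicate 2, 24 h vehicle replicate 1, 48 h ENPP1+ATP replicate 1 or 48 h vehicle replicate 2) and 1.11 ± 0.28 for AMP (adjusted p = 0.00595). Efr3a, Pdgfc and 1500002C15Rik had the pattern most like Enpp3, at r of 0.96, 0.96 and 0.95.

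Entpd1 gave too few reads in CFs to compare. Its counts were 1 to 16 per library, and the log2 differences from vehicle had wide errors, as for ENPP1+ATP at 24 h (0.34 ± 0.85, adjusted p = 0.774) and AMP at 48 h (1.33 ± 0.87, adjusted p = 0.231).

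Nt5e, the AMP-hydrolysing CD73, was low in CFs and fell further with both media at both times. In 24 h vehicle libraries it measured 1.57 and 1.27 CPM (179 and 53 reads), against 0.441 and 0.407 CPM with ENPP1+ATP (18 reads each) and 0.438 and 0.183 with AMP. No treated library reached vehicle. Nt5e fell by 1.75 ± 0.41 on the log2 scale with ENPP1+ATP (adjusted p = 0.000893) and by 2.30 ± 0.42 with AMP (adjusted p = 5.2e-05). The AMP value was -2.95 without AMP replicate 1 and -1.71 without replicate 2. ATP medium gave 1.02 and 0.931 CPM, between vehicle and ENPP1+ATP, a difference of -0.55 from vehicle that did not pass (adjusted p = 0.46). The difference of ENPP1+ATP from ATP, -1.20 (adjusted p = 0.0246), was lost without any 1 of the 4 libraries (adjusted p 0.0584 to 0.114).

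Nt5e was low with both media at 48 h too. Vehicle libraries held 1.60 and 1.98 CPM, ENPP1+ATP libraries 0.275 and 0.785 and AMP libraries 0.288 and 0.158. Treated libraries were again all below vehicle, and the ENPP1+ATP pair was spread widely. The gene fell by 1.78 ± 0.40 on the log2 scale with ENPP1+ATP (adjusted p = 0.000785), with values of -1.18 without ENPP1+ATP replicate 1 and -2.68 without replicate 2. With AMP it fell by 2.99 ± 0.45, 7.97-fold lower (adjusted p = 5.51e-06). The effect at 48 h less that at 24 h was -0.02 ± 0.61 for ENPP1+ATP (adjusted p = 0.984) and -0.69 ± 0.63 for AMP (adjusted p = 0.451). Genes with the most similar pattern were Acvr2a (r = 0.98), Igsf10 (0.97) and Lgi2 (0.97).

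Of the pyrophosphate genes, neither Alpl nor Ank passed the test in CFs. Alpl had 8 to 45 reads per library (0.202 to 0.562 CPM). Ank, the pyrophosphate or ATP exporter, measured 66.0 and 39.4 CPM with 24 h vehicle, 37.0 and 33.2 with ENPP1+ATP and 34.0 and 31.6 with AMP. The treated libraries were below vehicle, but the vehicle pair itself differed by more than the gap. The log2 differences were -0.61 ± 0.34 (adjusted p = 0.173) and -0.71 (adjusted p = 0.105). At 48 h Ank measured 79.9 and 56.0 CPM with vehicle, 59.6 and 37.9 with ENPP1+ATP and 40.8 and 40.1 with AMP, with differences of -0.48 (adjusted p = 0.288) and -0.75 (adjusted p = 0.0995). The AMP difference passed at 24 h without vehicle replicate 2 (0.0455) and at 48 h in the fit of the compared groups alone (0.00785). With no filter on low counts Ank was lower than vehicle in all 8 comparisons, the 4 of ENPP1+ATP and AMP (adjusted p 1.93e-25 to 6.96e-11) and also ATP at 24 h (-0.67, 5.58e-18) and 48 h (-0.59, 3.65e-14) and ENPP1 at 24 h (-0.40, 6.97e-05) and 48 h (-0.40, 1.67e-05). ATP libraries held 37.2 and 30.2 CPM at 24 h, as low as those of ENPP1+ATP and AMP. ENPP1 libraries overlapped vehicle at both times, at 32.1 to 49.2 CPM at 24 h and 41.6 to 61.6 at 48 h, as did ENPP1+ATP at 48 h. Why the fit with no filter gave such low p-values to pairs that spread widely or overlap vehicle was not tested.

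The members with other substrates behaved separately. Enpp2, autotaxin, showed no difference at 24 h, at 4.39 and 3.65 CPM with vehicle, 4.06 and 4.17 with ENPP1+ATP and 4.30 and 4.07 with AMP (log2 0.02 and 0.04). At 48 h vehicle libraries measured 7.36 and 4.58 CPM and ENPP1+ATP libraries 6.70 and 6.90, inside the vehicle range (log2 0.18, or 0.57 with adjusted p = 0.0345 without vehicle replicate 1). Within ENPP1+ATP medium Enpp2 was higher at 48 h than at 24 h by 0.72 (adjusted p = 0.0034, where 40.7% of all genes were called). The same difference in time was 0.56 in vehicle (adjusted p = 0.0841, and 0.0177 without 48 h vehicle replicate 2) and 0.42 in ATP medium (0.157).

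Enpp4, whose product cleaves diadenosine polyphosphates, was lower at 48 h with both media. It held 62.1 and 62.1 CPM with vehicle, 46.3 and 41.0 with ENPP1+ATP and 43.6 and 44.0 with AMP. The groups were well apart, and the fall was 0.51 ± 0.07 on the log2 scale for ENPP1+ATP (adjusted p = 9.62e-07) and -0.51 for AMP (adjusted p = 1.07e-06). At 24 h it was 59.3 and 66.8 CPM with vehicle, 60.1 and 60.3 with ENPP1+ATP and 51.4 and 52.4 with AMP, so that ENPP1+ATP overlapped vehicle (log2 -0.06, adjusted p = 0.48) and AMP was lower by a small amount (-0.28 ± 0.07, adjusted p = 0.00107). The ENPP1+ATP effect grew more negative from 24 h to 48 h, by -0.45 ± 0.10 (adjusted p = 0.000742).

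Enpp5, adjacent to Enpp4 on the opposite strand, rose. It measured 27.4 and 25.5 CPM with 24 h vehicle, 43.2 and 40.5 with ENPP1+ATP and 40.1 and 38.6 with AMP, with a clear gap between groups. The log2 fold changes were 0.66 ± 0.07 (adjusted p = 1.24e-08) and 0.57 ± 0.07 (adjusted p = 1.05e-07). At 48 h vehicle libraries had themselves reached 34.2 and 37.4 CPM, an increase over 24 h of 0.43 (adjusted p = 0.000323, with 4.88% of all genes called in that comparison), as it was between the same times with ENPP1 medium (0.48, where 7.95% were called) and ATP medium (0.43, where 14.8% were called), and ENPP1+ATP (40.2 and 44.5 CPM) and AMP (42.1 and 42.5 CPM) were higher by 0.24 each (adjusted p = 0.00448 and 0.00463). The 48 h calls were lost without vehicle replicate 1 (adjusted p = 0.102 for ENPP1+ATP and 0.099 for AMP), and that for ENPP1+ATP also without ENPP1+ATP replicate 2 (0.082).

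At 48 h 4 of 9 members passed with ENPP1+ATP (2 higher, 2 lower; 45.2% of all genes were called) and 3 of 9 with AMP (1 higher, 2 lower; 44.0% of all genes). Media of myocytes given ENPP1 alone or ATP alone changed none of the 9 at either time by edgeR, with 0 at an unadjusted p under 0.05 and 0 by DESeq2 in each of the 4 comparisons, where ATP medium changed 11.1% of all genes at 24 h and 7.83% at 48 h and ENPP1 medium 0%. With no filter on low counts edgeR called 1 member, Ank, in each of these comparisons. Between AMP and ENPP1+ATP media 0 members were called by edgeR at 24 h (2 at an unadjusted p under 0.05 and 2 called by DESeq2, where 6.25% of all genes were called) or at 48 h (3 and 1, where 0.162% were called). With no filter on low counts edgeR called 2 at 24 h and 3 at 48 h, and with the replicate number as a block 1 at 24 h (Enpp4, -0.22, adjusted p = 0.043) and 0 at 48 h.

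**Figure D2:**
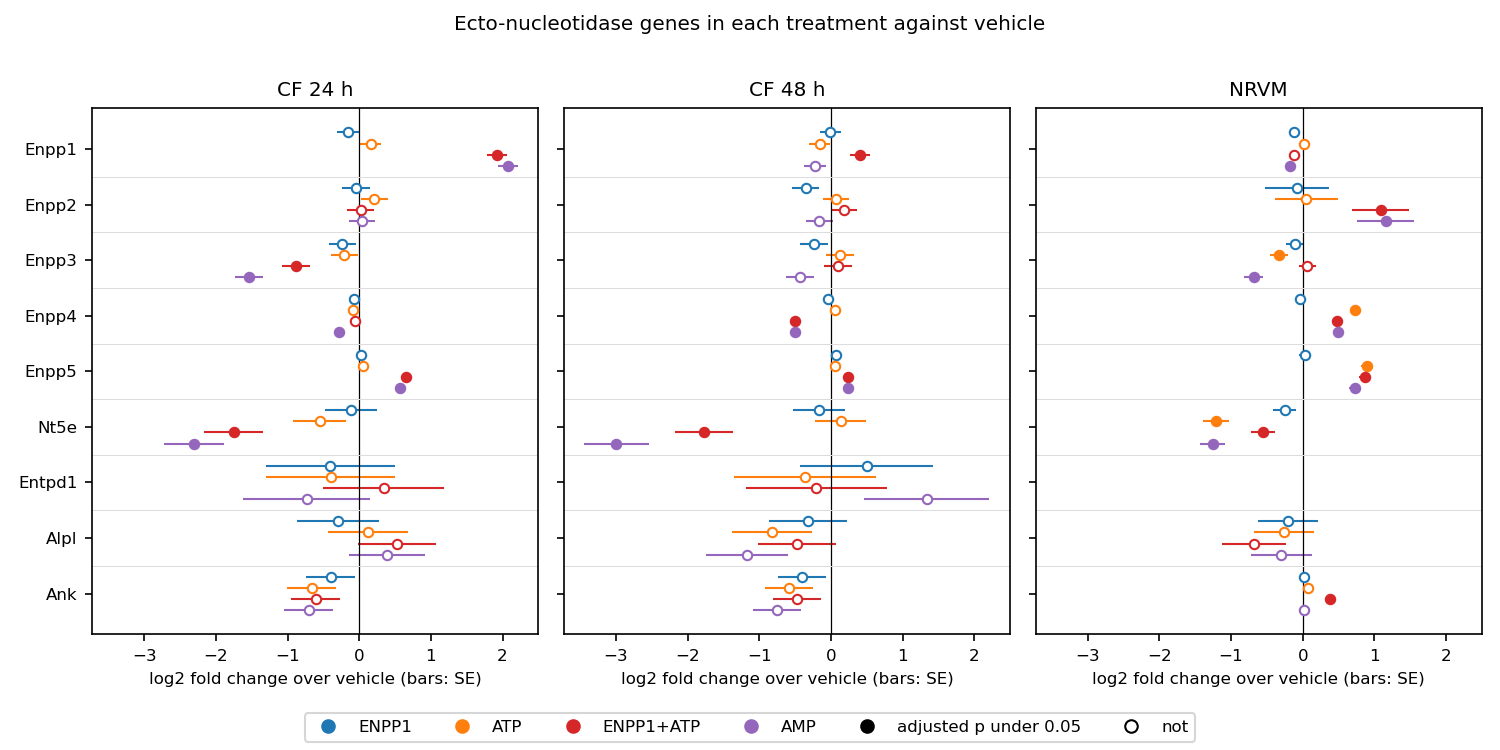
Log2 fold change over vehicle of each gene and treatment in CFs at 24 h and 48 h and in NRVMs, with bars of 1 SE and filled points where the adjusted p was under 0.05. With ENPP1+ATP, Enpp1 stands at 1.92 in CFs at 24 h, 0.41 at 48 h and -0.12 in NRVMs, Enpp4 at -0.51 in CFs at 48 h and 0.48 in NRVMs, and Nt5e is lower in all 3 panels.

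The next question was how the same genes stood in the NRVM cultures, whose libraries also held fibroblast transcripts. Which cells of these cultures gave the counts of a member was not tested. In NRVMs, ENPP1+ATP raised Enpp4, Enpp5, Ankh and Enpp2 and lowered Nt5e, and Enpp1 did not pass. By count, 5 of 8 members tested passed with ENPP1+ATP (4 higher, 1 lower; 56.0% of all genes were called), 6 of 8 with AMP (3 higher, 3 lower; 57.2%) and 4 of 8 with ATP (2 higher, 2 lower; 59.9%), again near the background. The treatment labelled ENPP1 changed 0 of 8 by edgeR, with 1 at an unadjusted p under 0.05 and 0 by DESeq2, beside 0% of all genes. Entpd1 was left out by the filter on low counts, with 0 to 15 reads per library.

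**Figure D3:**
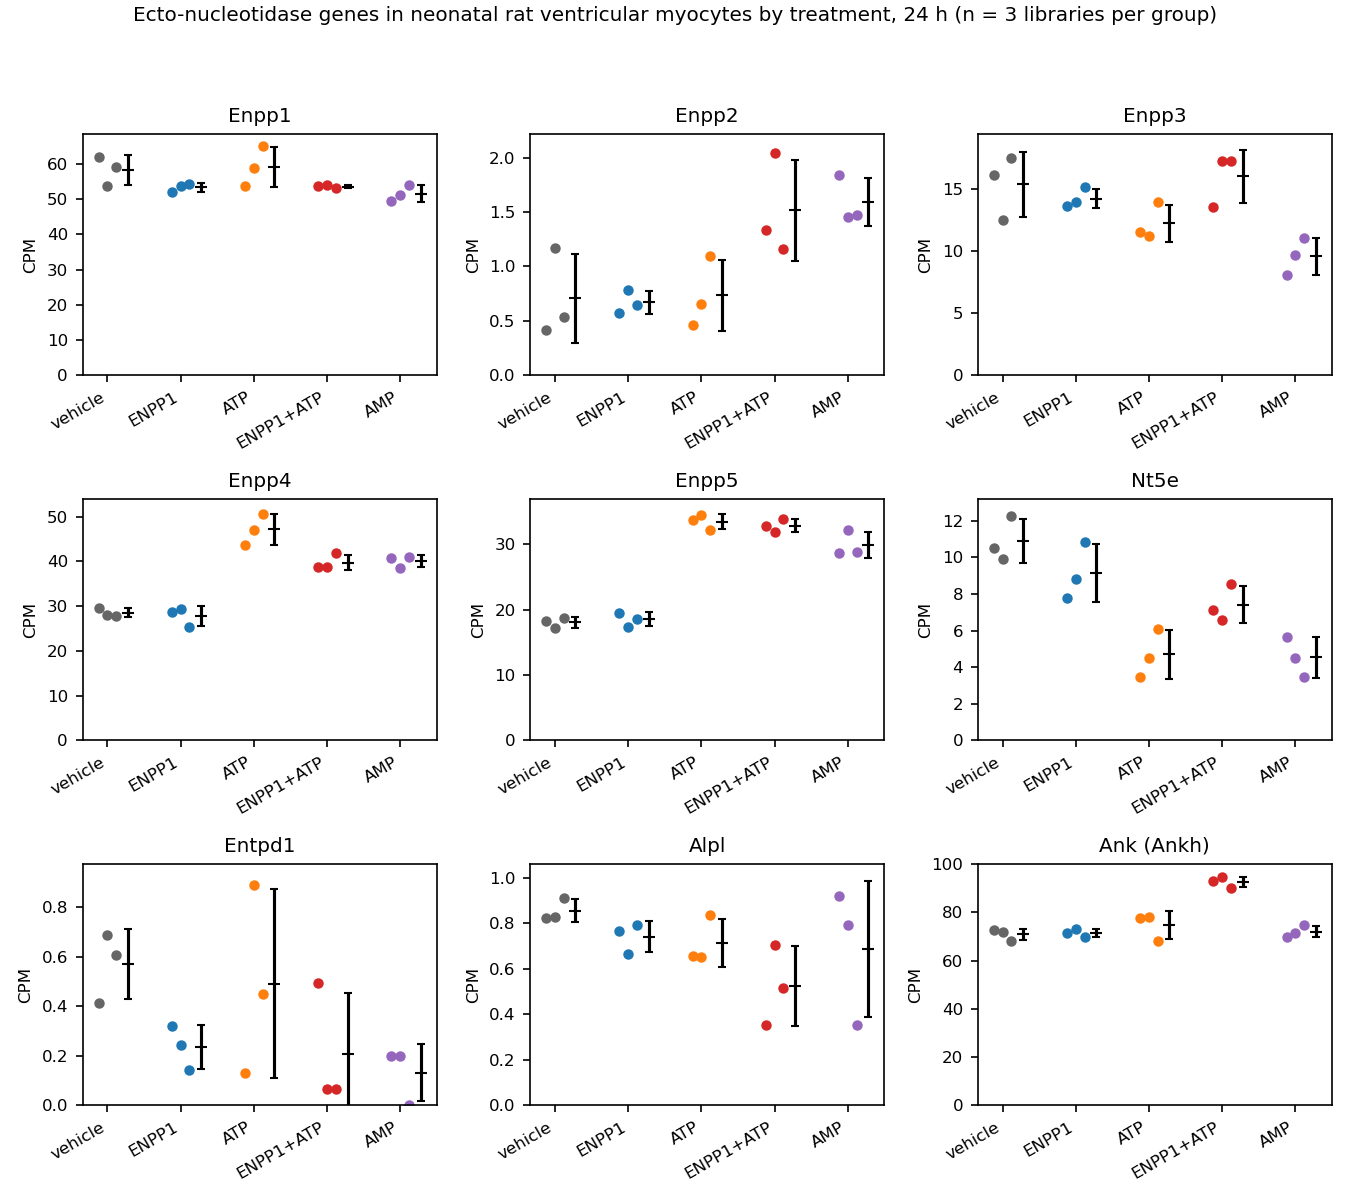
Level of each gene in NRVMs at 24 h, in CPM scaled by TMM factors, by treatment, with a point for each of the 3 libraries of a group and a bar for the mean ± SD. Enpp4 and Enpp5 libraries with ATP, ENPP1+ATP or AMP all stand above vehicle, Nt5e libraries with these treatments below it, and Enpp1 stays between 49.6 and 65.1 CPM.

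Enpp1 measured 62.0, 53.8 and 59.0 CPM in vehicle NRVMs (58.3 ± 4.16 SD, n = 3), 53.7, 54.0 and 53.1 with ENPP1+ATP and 49.6, 51.1 and 54.1 with AMP. The groups were close, and AMP overlapped vehicle. The log2 differences were -0.12 (adjusted p = 0.0975, and 0.0286 without vehicle replicate 2) and -0.18 ± 0.06 (adjusted p = 0.0154). The AMP call was lost without AMP replicate 1 (adjusted p = 0.0618) or vehicle replicate 1 (0.102). Enpp3 held 16.1, 12.5 and 17.5 CPM with vehicle, 13.5, 17.2 and 17.3 with ENPP1+ATP and 8.03, 9.64 and 11 with AMP. AMP libraries alone were below all vehicle libraries, a fall of 0.68 ± 0.13 on the log2 scale (adjusted p = 2.4e-05), and they were also below ENPP1+ATP by -0.75 (adjusted p = 6.2e-05, with 9.66% of all genes called between these treatments). ATP gave 11.5, 11.2 and 14.0 CPM, a difference of -0.33 (adjusted p = 0.0238) that overlapped vehicle and was lost without ATP replicate 1 or 2 or vehicle replicate 1 or 3 (adjusted p 0.0747 to 0.163) and under DESeq2 (adjusted p = 0.0511).

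Nt5e was lower in NRVMs as in CFs. Vehicle libraries held 10.5, 9.92 and 12.2 CPM (10.9 ± 1.21 SD), ENPP1+ATP libraries 7.11, 6.58 and 8.53 (7.41 ± 1.01), AMP libraries 5.66, 4.49 and 3.44 (4.53 ± 1.11) and ATP libraries 3.47, 4.51 and 6.11 (4.70 ± 1.33). None of the treated libraries overlapped vehicle, and ENPP1+ATP lay between vehicle and the other pair. The gene fell by 0.55 ± 0.17 on the log2 scale with ENPP1+ATP (adjusted p = 0.00488), by 1.26 ± 0.18 with AMP (2.09e-07) and by 1.21 with ATP (2.94e-07). ENPP1+ATP exceeded ATP by 0.66 (adjusted p = 0.00565, where 27.5% of all genes were called), a call lost without ATP replicate 1 (0.0528), and AMP was below ENPP1+ATP by -0.70 (0.00959), lost without AMP replicate 3 (0.0649) or ENPP1+ATP replicate 3 (0.0723). The summed fibroblast markers, given above, were lower in the same 3 treatments.

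Ankh was raised by ENPP1+ATP and was called in none of the other treatments with all libraries (with ATP it passed without ATP replicate 3, log2 0.14, adjusted p = 0.0331). Its libraries held 72.5, 71.9 and 68.0 CPM with vehicle (70.8 ± 2.43 SD), 71.4, 73.1 and 69.6 with ENPP1, 77.8, 78.2 and 68.0 with ATP, 69.9, 71.5 and 74.7 with AMP and 93.1, 94.5 and 90.1 with ENPP1+ATP (92.6 ± 2.27). Every ENPP1+ATP library exceeded every other NRVM library. The log2 fold change over vehicle was 0.39 ± 0.05 (adjusted p = 4.61e-08), that over ATP 0.31 (9.46e-06), and AMP was below ENPP1+ATP by -0.36 (2.63e-06). Alpl had 5 to 14 reads per library and none of its differences passed (log2 -0.68 ± 0.44 with ENPP1+ATP, adjusted p = 0.191).

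Enpp4 and Enpp5 rose with each of ATP, ENPP1+ATP and AMP. Enpp4 measured 29.6, 28 and 27.8 CPM with vehicle (28.5 ± 0.983 SD), 43.7, 47.1 and 50.6 with ATP, 38.7, 38.7 and 41.8 with ENPP1+ATP and 40.7, 38.4 and 41.1 with AMP. All treated libraries were above vehicle, with log2 fold changes of 0.73 for ATP (adjusted p = 3.42e-12), 0.48 ± 0.07 for ENPP1+ATP (2.02e-07) and 0.49 for AMP (1.23e-07). Enpp5 measured 18.3, 17.2 and 18.7 CPM with vehicle (18.1 ± 0.806), 33.7, 34.5 and 32.2 with ATP, 32.8, 31.9 and 33.9 with ENPP1+ATP and 28.6, 32.2 and 28.7 with AMP. The groups did not overlap vehicle, and the log2 fold changes were 0.89 (adjusted p = 2.83e-13), 0.87 ± 0.08 (9.93e-13) and 0.73 (1.75e-10).

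Enpp2 was at the floor of these libraries, with 6 to 32 reads each. It measured 0.413, 1.17 and 0.532 CPM with vehicle, 1.34, 2.04 and 1.16 with ENPP1+ATP and 1.84, 1.45 and 1.47 with AMP. ENPP1+ATP overlapped vehicle through vehicle replicate 2, and AMP did not. The log2 fold changes were 1.09 ± 0.40 (adjusted p = 0.0178) and 1.16 ± 0.39 (0.0113). Both calls were lost without vehicle replicate 1 (0.123 and 0.092) or vehicle replicate 3 (0.0801 and 0.0574), the former also without ENPP1+ATP replicate 2 (0.135) and the latter without AMP replicate 1 (0.0518).

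Genes around the members were followed in lists chosen with earlier results of these data known. Of all genes tested, 23.9% were called higher and 25.3% lower with ENPP1+ATP in CFs at 24 h, 20.8% and 24.4% at 48 h, and 28.6% and 27.4% in NRVMs, and the counts below stand beside these shares. A list of other enzymes acting on nucleotides held genes of the cell surface and of the secretory pathway. Of these, 10 were tested in CFs at 24 h, and 3 were higher and 0 lower with ENPP1+ATP (median log2 0.17, against -0.0046 for all genes). Among the higher ones were Entpd5 (0.41), a nucleoside diphosphatase of the secretory pathway, and Acp3 (0.70), a phosphatase that can hydrolyse AMP. Acp3 was higher by 1.5 at 48 h (adjusted p = 5e-05), where 2 of the list were higher and 1 lower. With AMP medium 3 of the list were higher and 2 lower at 24 h (median 0.016). Of all genes 25.3% were higher and 27.5% lower in that comparison. At 48 h AMP gave 2 higher and 2 lower (median -0.15), beside 21.1% and 22.9% of all genes. In NRVMs 12 were tested, with 5 higher and 4 lower with ENPP1+ATP, and Entpd3, an ATP diphosphohydrolase, fell by 2.74 ± 0.36 on the log2 scale (adjusted p = 1.11e-08).

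The list of phosphate and pyrophosphate handling was mixed. With ENPP1+ATP, 2 of 9 were higher and 2 lower at 24 h in CFs (median 0.23), 2 higher and 4 lower at 48 h (median -0.22, against -0.03 for all genes), and 3 of 7 higher and 3 lower in NRVMs (median -0.04, against 0.01). The phosphate importer Slc20a1 changed by 0.47 at 24 h in CFs and -0.38 at 48 h, and Phospho1, a phosphatase of mineralizing cells, by 0.74 in NRVMs. The calcification inhibitor Mgp was lower in CFs at 48 h (-1.08, adjusted p = 0.0191) and in NRVMs (-0.98, adjusted p = 0.0224).

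For genes of lysophosphatidic acid, the product of autotaxin, more calls were lower than higher at 24 h. In CFs at 24 h with ENPP1+ATP, 1 of 8 was higher and 6 lower (median -0.67), and with AMP 0 higher and 7 lower (median -0.72), where 25.3% of all genes were lower with ENPP1+ATP and 27.5% with AMP. The receptors Lpar1 (-1.12, adjusted p = 5.49e-12) and Lpar4 (-1.18, adjusted p = 1.14e-06) and the phosphatase Plpp3 (-0.90, adjusted p = 1.96e-09), which degrades the lipid, were among them. In NRVMs 0 of 8 were higher and 6 lower with ENPP1+ATP (median -0.56), with Lpar4 at -1.43 (adjusted p = 6.96e-06). At 48 h in CFs the list was divided, with 2 higher and 3 lower (median -0.02).

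Of channels and transporters that release ATP, 5 of 9 were higher and 1 lower with ENPP1+ATP in CFs at 24 h (median 0.15) and 3 were higher and 3 lower at 48 h (median 0.19). Gja1, connexin 43, rose by 0.43 at 24 h and by 1.30 ± 0.05 at 48 h (adjusted p = 9.61e-16), and the vesicular nucleotide transporter Slc17a9 changed by -1.41 and -0.83. In NRVMs 4 of 10 were higher and 4 lower (median -0.23), with Panx2 at 1.11. For sensing of cyclic GAMP, a nucleotide that ENPP1 also degrades, 1 of 5 was higher and 1 lower in CFs at 24 h (median -0.01), 3 higher and 2 lower at 48 h (median 0.19), and 2 higher and 1 lower in NRVMs (median -0.14). Sting1, the receptor of this nucleotide, changed by 0.58 in CFs at 48 h and by -1.21 in NRVMs.

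The last question was in which cells of the injured heart the genes are transcribed and how their levels stood after deletion of Enpp1 with Col1a2-driven Cre. With 1 library per genotype there is no replicate check and no test. Values are unique molecules counted in a class, scaled to CPM of its total, and intervals are exact at 95% and cover counting error only. Of 12495 cells kept, 7255 were from ENPP1CKO and 5240 from control hearts, with median counts of 3367 and 3701, and 68 barcodes were shared by the libraries. The cells fell into 19 clusters, formed without the 9 genes, of which 2 stayed unnamed. Fibroblast-like cells had cluster 0 (led by Thbs4 and Cilp) as their largest cluster in ENPP1CKO, with 1831 of 3664 cells, and cluster 1 (Col11a1) in control, with 803 of 1783. Among macrophage-like cells cluster 9 (Gpnmb, Trem2) was the largest in both libraries, and cluster 11 (Ccl24, Ltc4s) had 54 cells in ENPP1CKO and 819 in control. Clusters 0, 4, 11 and 17 were over 80% of 1 library.

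**Figure D4:**
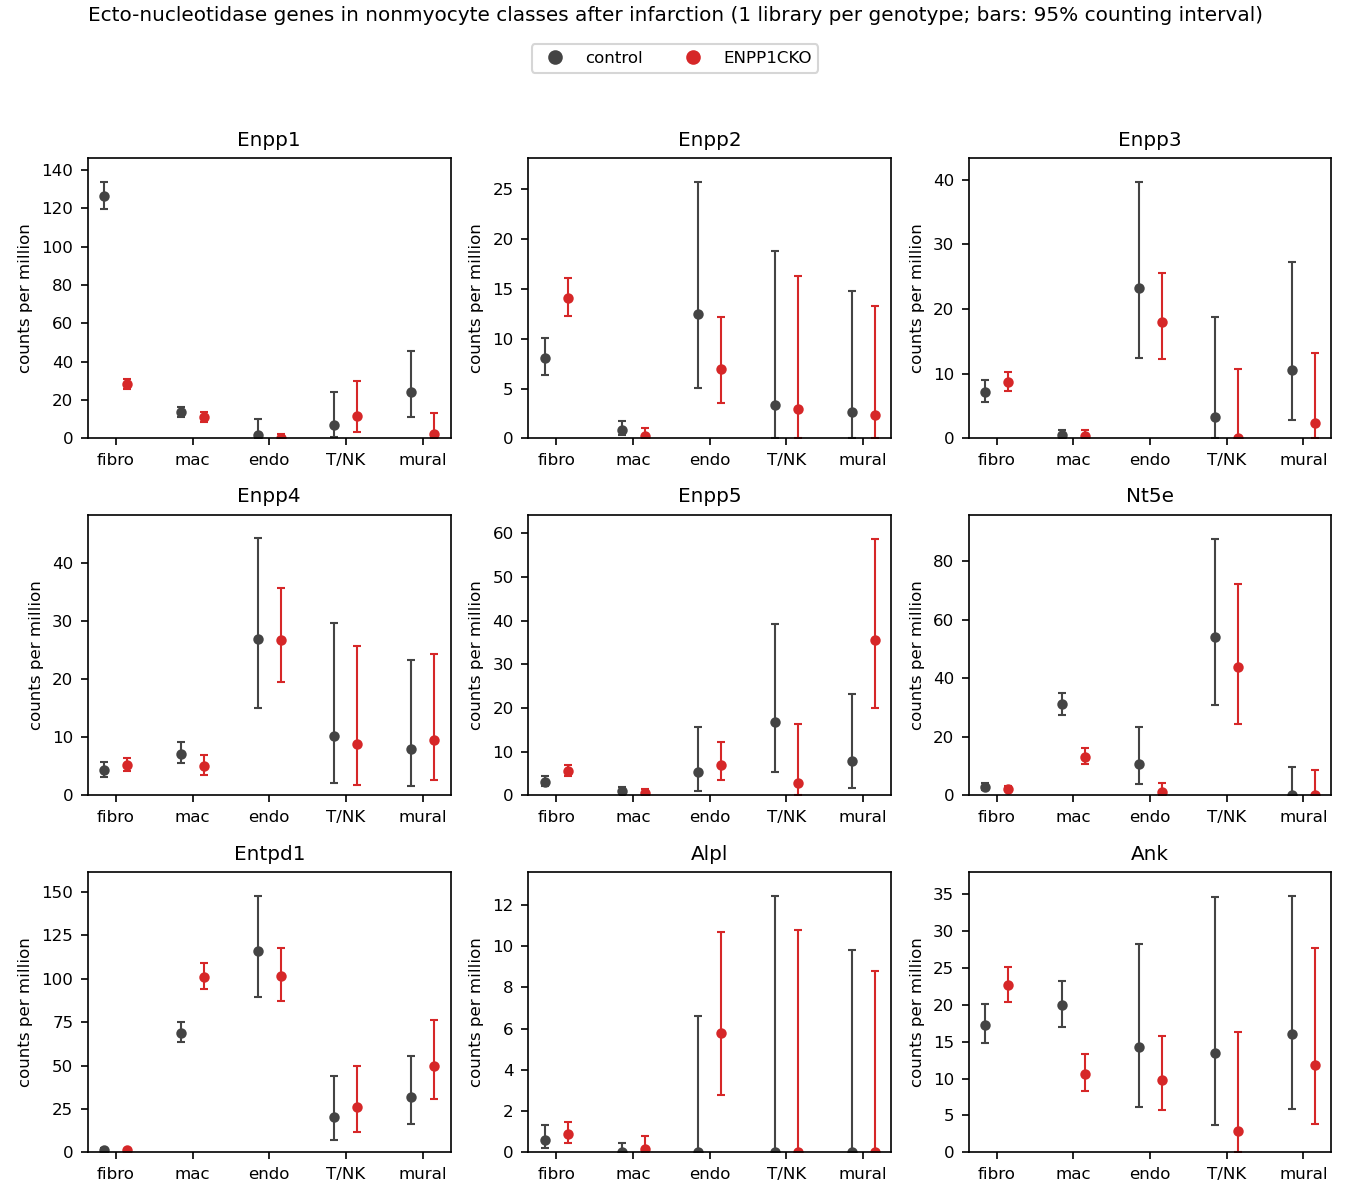
Level of each gene in fibroblast-like (fibro), macrophage-like (mac), endothelial-like (endo), T or NK cell-like (T/NK) and smooth muscle or pericyte-like (mural) cells, in CPM of the class total, for the control and ENPP1CKO library, with bars for the exact 95% counting interval. Enpp1 is highest in control fibroblast-like cells (127 CPM), Entpd1 in endothelial-like and macrophage-like cells, and Nt5e in T or NK cell-like and macrophage-like cells.

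Enpp1 was the deleted gene and was lower in every fibroblast-like cluster of the ENPP1CKO library. In clusters 0, 1, 2 and 3 it stood at 37.0, 24.0, 16.5 and 22.9 CPM against 183, 136, 59.3 and 106 in control. The log2 ratios were -2.31 [-2.53, -2.08], -2.51 [-2.89, -2.14], -1.85 [-2.27, -1.42] and -2.20 [-3.20, -1.31] in that order, and these intervals overlap each other. Within control, Enpp1 was lowest in cluster 2, the Clec3b-led fibroblasts. Over the class the ratio was -2.15 [-2.31, -2.0], where 2.63% of genes with at least 20 counts were past 2-fold lower and 2.46% past 2-fold higher. All 9 members had 20 counts there, and no other one was past 2-fold. With cells thinned to 1000 counts each, Nt5e was past 2-fold lower (log2 -3.35 [-8.92, -0.19], from 1 and 5 counts), as was Enpp1 (-1.89), and Enpp2 (1.09) and Enpp5 (1.29 [-0.29, 3.30]) were past 2-fold higher.

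Cluster 7 is unnamed, has leading genes of the cell cycle (Ube2c, Hmmr, Pbk) and holds 11 macrophage and 10 fibroblast markers. Enpp1 was lower there too, with 22.2 CPM in ENPP1CKO and 124 in control (14 and 113 counts, log2 -2.48 [-3.39, -1.67]). The part of its cell make-up in that ratio was not tested. In cluster 16, the other unnamed cluster, with Wt1, Clu and Dmkn among its leading genes, Enpp1 was at 36.5 and 39.1 CPM (7 and 45 counts, log2 -0.10 [-1.49, 1.06]), an interval that overlaps those of fibroblast-like clusters 2 [-2.27, -1.42] and 3 [-3.20, -1.31] and not those of clusters 0 and 1. The difference between clusters was not tested. Smooth muscle or pericyte-like cells had 1 and 9 counts (2.38 and 24.0 CPM, log2 -3.33 [-8.79, -0.48]), where free fibroblast RNA could give 4.55 and 44.1 CPM. Macrophage-like cells held 11 and 13.5 CPM (log2 -0.31 [-0.74, 0.12]), above the 0.486 and 2.43 CPM that free fibroblast RNA could give. Endothelial-like cells had 0 counts in ENPP1CKO and 1 in control. Both libraries drew a like share of their Enpp1 counts from fibroblast-like cells, 81.1% in ENPP1CKO and 81.0% in control. These cells were 50.5% of the ENPP1CKO and 34.0% of the control cells, so the shares do not compare levels per cell. Macrophage-like cells gave 13.4% and 7.53% of the Enpp1 counts and unnamed cells 3.71% and 10.3%.

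**Figure D5:**
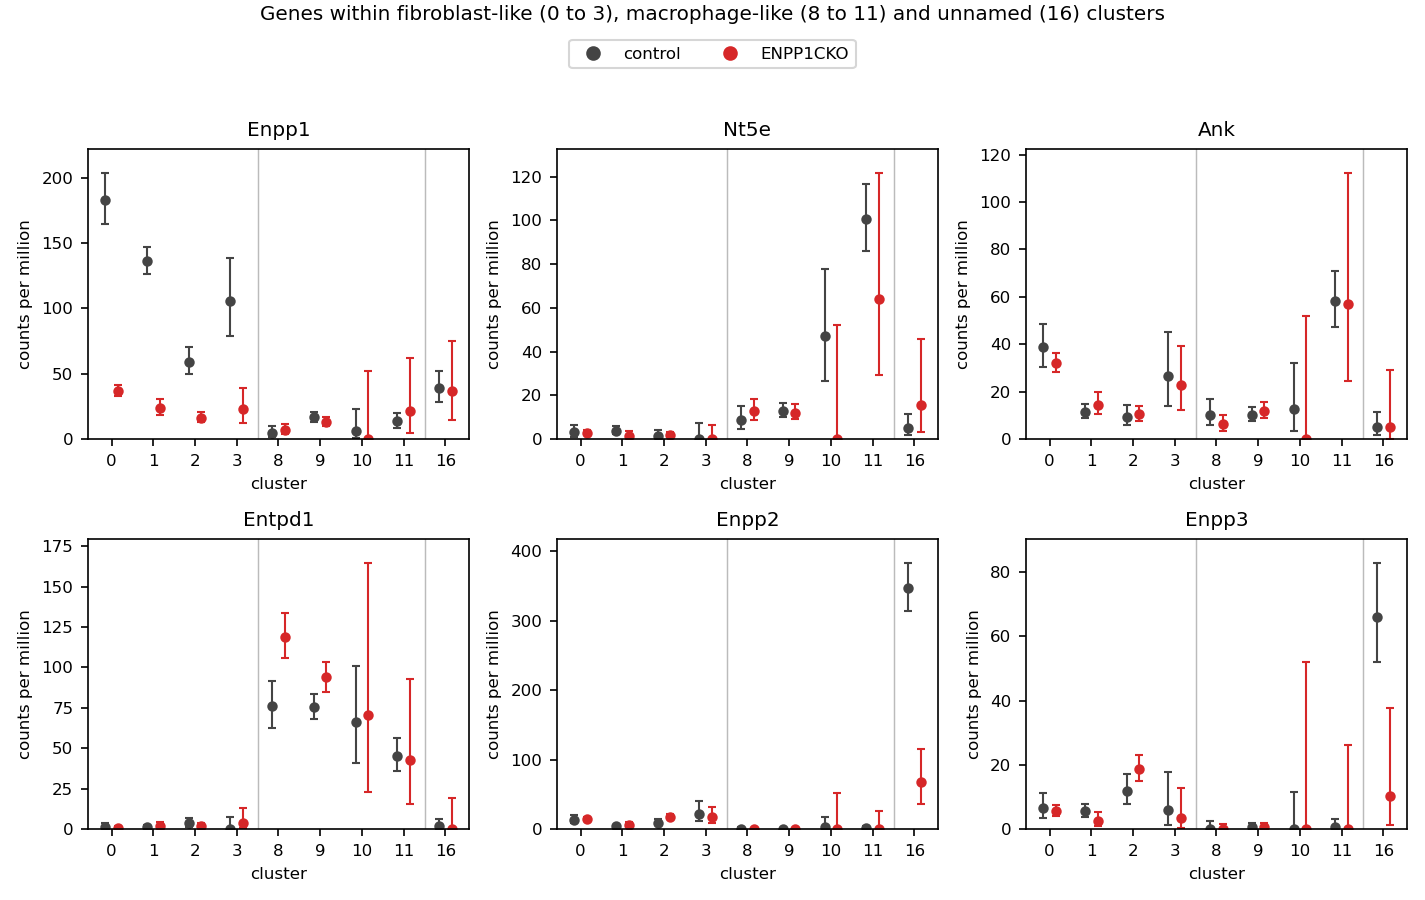
Level of 6 genes within fibroblast-like clusters (0 to 3), macrophage-like clusters (8 to 11) and the unnamed cluster 16, in CPM of the cluster total, for the control and ENPP1CKO library, with bars for the exact 95% counting interval. Enpp1 is lower in ENPP1CKO in each of clusters 0 to 3, with overlapping bars in cluster 16, Nt5e and Ank peak in cluster 11 and Enpp2 in cluster 16 of control (347 CPM).

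Enpp3, the other ATP pyrophosphatase, was at 8.69 CPM in ENPP1CKO and 7.17 in control fibroblast-like cells (140 and 70 counts, log2 0.28 [-0.15, 0.71], and -0.24 with cells thinned to 1000 counts). It was highest among fibroblasts in cluster 2, at 18.7 [14.9 to 23.1] and 11.8 [7.68 to 17.2] CPM, the cluster where Enpp1 was lowest in control. Endothelial-like cells held 18.0 and 23.2 CPM (31 and 13 counts).

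Entpd1, which takes ATP to AMP, was high in endothelial-like and macrophage-like cells and near the level of free RNA in fibroblast-like cells. Dendritic-like cells held 16.7 CPM in ENPP1CKO and 17.5 in control (6 and 7 counts). Endothelial-like cells held 102 CPM in ENPP1CKO and 116 in control (log2 -0.76 [-1.46, -0.02] with cells thinned to 1000 counts; none of the 4 members with 20 counts was past 2-fold there, beside 4.16% of genes lower and 5.9% higher), and within them the Gpihbp1-led cluster 4 held 112 and 140 CPM while the Prox1 and Lyve1 cluster 14 had 1 and 0 counts. Macrophage-like cells held 101 CPM in ENPP1CKO and 69.0 in control (703 and 586 counts, log2 0.55 [0.39, 0.71]). That ratio was 0.45 [0.28, 0.62] without cluster 11, and stood at 0.64 [0.32, 0.97] in the Il1b-led cluster 8 and 0.32 [0.11, 0.53] in cluster 9, but at 0.09 [-1.67, 1.54] in cluster 10 and -0.09 [-1.58, 1.10] in cluster 11, each from few ENPP1CKO counts (5 and 6). Neutrophil-like cells gave 254 and 185 CPM from 4 and 15 counts, smooth muscle or pericyte-like cells 49.9 and 32.0 from 21 and 12, and T or NK cell-like cells 26.3 and 20.2 from 9 and 6, where free macrophage RNA could give 11.2 and 2.72. Fibroblast-like cells held 1.49 and 1.54 CPM, where free macrophage RNA could give 0.896 and 1.12.

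Nt5e, the next enzyme of the chain, stood low in fibroblast-like cells. T or NK cell-like cells held 43.8 CPM in ENPP1CKO and 54.0 in control (15 and 16 counts), macrophage-like cells 13.3 and 31.1 (92 and 264 counts) and fibroblast-like cells 2.23 and 2.87. Neutrophil-like cells had 0 counts in ENPP1CKO, with an exact 95% upper limit of 235 CPM, and 7 in control (86.1 [34.6 to 177] CPM). Endothelial-like cluster 4 had 2 and 6 counts (log2 -3.33 [-6.67, -0.85]). The macrophage difference, log2 -1.23 [-1.59, -0.88], was past 2-fold, as were 4.83% of genes in the lower direction and 1.32% in the higher direction in that class. Of the other 4 members with 20 counts there none was past 2-fold. Nt5e was at 64.0 [29.3 to 121] and 100 [86.0 to 117] CPM in cluster 11, at 12.1 and 13.0 in cluster 9 and at 12.8 and 8.91 in cluster 8. Cluster 10 (Chil3, Ly6c2) had 0 counts in ENPP1CKO, with an exact 95% upper limit of 51.9 CPM. In control it had 15 counts (47.2 [26.4 to 77.9] CPM). Without cluster 11 the ratio was -0.17 [-0.61, 0.28].

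Ank followed a like layout within macrophages, at 56.9 and 58.2 CPM in cluster 11. Over macrophage-like cells it was at 10.7 and 19.9 CPM (log2 -0.90 [-1.31, -0.50]), and without cluster 11 the ratio was -0.09 [-0.59, 0.42]. Fibroblast-like cells held 22.7 and 17.3 CPM (365 and 169 counts, log2 0.39 [0.12, 0.66], and 0.84 with cells thinned to 1000 counts), while in cluster 0 the ratio was -0.28 [-0.65, 0.11]. Among fibroblast-like clusters, cluster 0 held 32.0 and 38.8 CPM of Ank, cluster 3 held 22.9 and 26.4, cluster 1 held 14.5 and 11.6 and cluster 2 held 10.6 and 9.5. Alpl was rare, with 14 and 6 counts in fibroblast-like cells and 10 and 0 counts in endothelial-like cells, where 3 counts in control would be 5.36 CPM.

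Enpp2 came mainly from different cells in the libraries. In the control library 15.7% of its counts came from fibroblast-like cells, and 399 counts came from the 116 cells of cluster 16 (347 [314 to 383] CPM). The ENPP1CKO library had 30 cells of that cluster, with 13 counts (67.9 [36.1 to 116] CPM), a log2 ratio of -2.35 [-3.28, -1.56], and 88.0% of its Enpp2 counts came from fibroblast-like cells. Enpp3 had the same layout there, with 2 and 76 counts (log2 -2.66 [-5.73, -0.76]). Cluster 16 holds 8 of the fibroblast and 6 of the epicardial or mesothelial markers. In fibroblast-like cells Enpp2 was at 14.1 and 8.09 CPM (log2 0.80 [0.42, 1.19]), with 14.4 and 13.8 in cluster 0 and 17.6 and 9.05 in cluster 2 (log2 0.96 [0.24, 1.75]).

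Enpp4 was highest in endothelial-like cells among the larger classes, at 26.7 and 26.8 CPM (46 and 15 counts), against 5.21 and 4.30 in fibroblast-like and 5.05 and 7.19 in macrophage-like cells. Enpp5 was at 35.7 and 7.99 CPM in smooth muscle or pericyte-like cells (15 and 3 counts, log2 2.16 [0.34, 4.59], below the 20 counts asked of the genes of that class, of which 6.26% were past 2-fold higher and 5.45% lower) and at 5.59 and 3.07 CPM in fibroblast-like cells (90 and 30 counts, log2 0.86 [0.25, 1.51]). Of the 5 lists around the members, none had a gene past 2-fold in fibroblast-like cells. Their median log2 ratios there were 0.04 for other enzymes acting on nucleotides, 0.09 for phosphate handling, 0.14 for ATP release, 0.22 for lysophosphatidic acid and -0.16 for cyclic GAMP sensing. In macrophage-like cells 4 list genes were past 2-fold lower, Bst1 (-1.32), Slc20a2 (-1.29), Spp1 (-1.15) and Lrrc8b (-1.74), and in endothelial-like cells 4 were, Bst1 (-1.70), Slc20a2 (-1.14), Plpp2 (-1.33) and Spp1 (-1.42), with 0 higher in either class, beside 4.83% and 4.16% of genes lower. These genes were named after their values were seen. The part of cluster 11, with 54 ENPP1CKO and 819 control cells, in the macrophage-like ratios of these genes was not tested. For Slc20a2 in endothelial-like cells the interval was [-2.41, 0.20], from 14 and 10 counts, and included no change. Each list had 5 to 9 genes with 20 counts in macrophage-like cells and 3 to 7 in endothelial-like cells. Spp1 was at 30.8 and 82.2 CPM in endothelial-like cells and 1772 and 3926 in macrophage-like cells, and C1q, a macrophage marker, stood in endothelial-like cells at 1.11% and 1.64% of its macrophage-like level. The part of free macrophage RNA in the endothelial-like Spp1 values was not tested, and no source is given for their difference.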

How the data were processed

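CFs, NRVMs and nonmyocytes were sequenced as described above. The authors deposited whole-number counts per gene and library (bulk) and unique molecule counts for each gene in each cell (single cell), with no normalization. The submitters' processing notes name STAR 2.5.3a, Cell Ranger, mm10 and rn6 without giving their roles. The strand setting and the gene annotation are not given in the sources used here. NRVM files carry rat symbols, although GEO lists their organism as mouse. No sample column was left unused (0).

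Samples were grouped by the labels. The 9 genes and all lists were chosen with earlier results of these data known. Named list genes are those of each list with the largest called changes. Bulk counts went into edgeR 4.0.16 (R 4.3.3), with 1 fit for CFs (17879 genes tested, 9 of 9 members) and 1 for NRVMs (13461, 8 of 9), with filterByExpr, TMM factors and 1 mean per group. Adjusted p-values are those of its quasi-likelihood test with Benjamini-Hochberg adjustment over all genes tested, called under 0.05. SEs come from the test statistics. CF libraries had a biological coefficient of variation of 0.0590 and NRVM libraries one of 0.0499. RPKM used GENCODE exon lengths, in CFs only. All 25 replicate pairs differed beyond sampling noise (chi-square per degree of freedom 2.47 to 38.3). DESeq2 1.42.0, median-ratio size factors, no filter on low counts, the replicate number as a block, fits of the compared groups or of 1 time alone and leaving out each library were alternatives. The scripts were tested on simulated data. Promoters came from RefSeq, where 7 of 9 members had an entry (5 with 1 and 2 with several).

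Cells were clustered with scanpy 1.11.5 without the 9 genes, after doublets called by Scrublet were removed (151 in ENPP1CKO, 2.02%, and 69 in control, 1.29%). Clusters were named from marker lists, and the rule on how far the first class must lead the next was added after the clusters were seen. Counts were summed per class and library. Ratios have exact conditional binomial intervals, and the floor for 0 counts is 3 counts.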

Additional observations from a re-analysis of the deposited data

Results flagged for a closer look

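Effects that differed between 24 h and 48 h in CFs were picked out because the difference itself passed edgeR's quasi-likelihood test with Benjamini-Hochberg adjustment. For ENPP1+ATP medium the log2 effect at 48 h less that at 24 h was -1.52 for Enpp1 (adjusted p = 2.24e-06), 0.98 for Enpp3 (0.0124), -0.45 for Enpp4 (0.000742) and -0.41 for Enpp5 (0.00164). For AMP medium it was -2.30 for Enpp1 (adjusted p = 4.36e-09), 1.11 for Enpp3 (0.00595) and -0.32 for Enpp5 (0.0107). The Enpp5 difference for AMP was lost without 24 h vehicle replicate 2 (0.0661) or 48 h vehicle replicate 2 (0.0904).

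Other genes were picked out because every treated library lay on the same side of vehicle in CFs and on the opposite side in NRVMs. This difference between mouse and rat cells was not tested. Groups of so few libraries can separate without a called difference. With AMP medium in CFs at 48 h, 7 of 9 members did not overlap vehicle and 3 were called. How many of all genes met the rule was not counted. For Enpp4 with ENPP1+ATP the log2 fold change was -0.51 in CFs at 48 h and 0.48 in NRVMs, and with AMP it was -0.28 at 24 h and -0.51 at 48 h in CFs and 0.49 in NRVMs. Ank with ENPP1+ATP was at -0.61 in CFs at 24 h, which did not pass the test, and Ankh at 0.39 in NRVMs. Alpl, low in both cell types, was at 0.52 in CFs at 24 h and -0.68 in NRVMs with ENPP1+ATP, neither of which passed. Entpd1 with AMP was at 1.33 in CFs at 48 h (10 and 16 reads, against 5 and 7 with vehicle) and did not pass. In NRVMs, where Entpd1 was left out by the filter, its libraries had 0 to 3 reads with AMP and 6 to 10 with vehicle. Alpl and Entpd1 had too few reads for their opposite directions to be read as a difference between the cell types.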

How the results depend on the processing

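Over the 219 bulk results, 1142 of 1181 values from other settings kept their side of the threshold, 6 fell short of it and 33 newly passed. With 1 library left out 985 of 1044 kept theirs, 51 fell short and 8 newly passed. No result called in either of the 2 fits compared changed direction. Changes of direction among results called in neither fit were not counted. Ank in CFs accounted for many of those that newly passed, most with no filter on low counts. A lone library left in a group is assumed to vary like the other groups. The number of members called with 1 library left out was 4 to 4 for ENPP1+ATP and 5 to 6 for AMP in CFs at 24 h, 3 to 4 and 2 to 3 at 48 h, and 4 to 6 for both in NRVMs. With AMP medium at 48 h, 3 members were called, against 5 with no filter on low counts and 5 when only the compared groups were fitted; the cause was not tested. Replicate numbers did not pair the libraries, and the fit with the replicate number as a block called 4, 5, 4 and 3 members in CFs (ENPP1+ATP and AMP at 24 h, then at 48 h) and 5 and 6 in NRVMs, as without it. Between AMP and ENPP1+ATP at 24 h in CFs it called 1 member, Enpp4, against 0 without it. The Enpp1 ratio of fibroblast-like cells was -1.89 when cells were thinned to 1000 counts and -2.52 without clusters mostly of 1 library; the cause was not tested. Over 18 single-cell results, 114 of 124 values from other settings moved by less than the counting interval. Low read numbers limit Entpd1 and Alpl in bulk, and single libraries limit every difference between genotypes.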
